A study of Homo sapiens with 6 samples.

Results

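Genes of homologous recombination, of the Fanconi anaemia pathway and of mismatch repair were examined in THP-1, a human cell line from an acute monocytic leukaemia. The members were 37 genes chosen by symbol, and all 37 were found among the 25336 genes of the count table and passed the low-count filter. RNA was sequenced from 3 libraries labelled Pristimerin and from 3 libraries labelled control. Pristimerin is a plant triterpenoid with a quinone-methide group. Erastin, an inducer of ferroptotic death, is in the title of the series, but no library is labelled with it, and whether cells of either group were given erastin is not stated. The labels give neither a dose nor an exposure time. They call the samples replicate biosamples without saying that these were separate cultures, so p-values refer to the variation of these libraries alone, and that variation may be technical.

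Homologous recombination repairs broken DNA from the sister chromatid: nucleases trim the broken ends, BRCA1, BARD1, PALB2 and BRCA2 prepare the exposed strand for the homology search, and RAD54-type motors drive strand exchange. The Fanconi pathway acts on cross-links between the DNA strands, where a core ubiquitin ligase modifies the FANCD2-FANCI clamp. Mismatch repair removes replication errors through MSH6- and MSH3-containing sensors and the nuclease EXO1. These pathways work mainly in S and G2 phase, and many of their genes are known targets of E2F factors, which drive transcription at the G1/S transition.

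Members of all 8 roles included at least 1 gene that was higher in pristimerin libraries, and no member was lower in the reported fit. With edgeR's quasi-likelihood test and a threshold of 0.05 on the adjusted p, 16 of the 37 members (43.2%) were higher, against 14.5% of the 15305 genes tested, of which 29.6% were called in either direction. The median log2 fold change (pristimerin over control) was 0.16 for the members and -0.01 over all genes tested. The count of 0 lower in edgeR's test was also 0 at an unadjusted p under 0.05, in DESeq2 and in limma-voom, while 15.1% of all genes tested were lower. That count was 1 (FANCD2) with upper-quartile scaling and with library totals. Among the 9446 tested genes within the members' range of abundance, 17.8% were higher. The size of the difference was modest throughout, with log2 fold changes of the called members between 0.18 and 0.55. In 17 members all 3 pristimerin libraries lay above all 3 control libraries, as did 21.0% of all genes tested, and in 0 members all 3 lay below, as did 22.3% of all genes tested. The count of 16 rested partly on the scaling and on the libraries: it was 9 with upper-quartile scaling, 7 with library totals, 7 with limma on log2 FPKM (length-scaled values, at either of 2 pseudocounts) and 9 without control replicate 3. The balance over all genes tested moved with the scaling too, with 9.95% higher and 19.9% lower under upper-quartile scaling, and 9.08% higher and 21.0% lower with library totals. Upper-quartile scaling ended the calls of BRCA1, RAD51AP1, RAD54L, RAD54B, FANCI, MSH3 and ATR, and library totals and the FPKM fits those of MSH6 and CHEK1 as well. XRCC2, EXO1, BRIP1, BLM, MRE11, RBBP8 and UBE2T stayed called as higher in all 19 alternatives. The 9 other called members kept a positive log2 fold change in those alternatives but lost the call in at least 1. In 10 members the gene span overlaps that of a gene with at least 20% of the member's CPM, and among the 27 others, some of which overlap less abundant genes, 11 were higher and 0 lower (median 0.16).

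**Figure D1:**
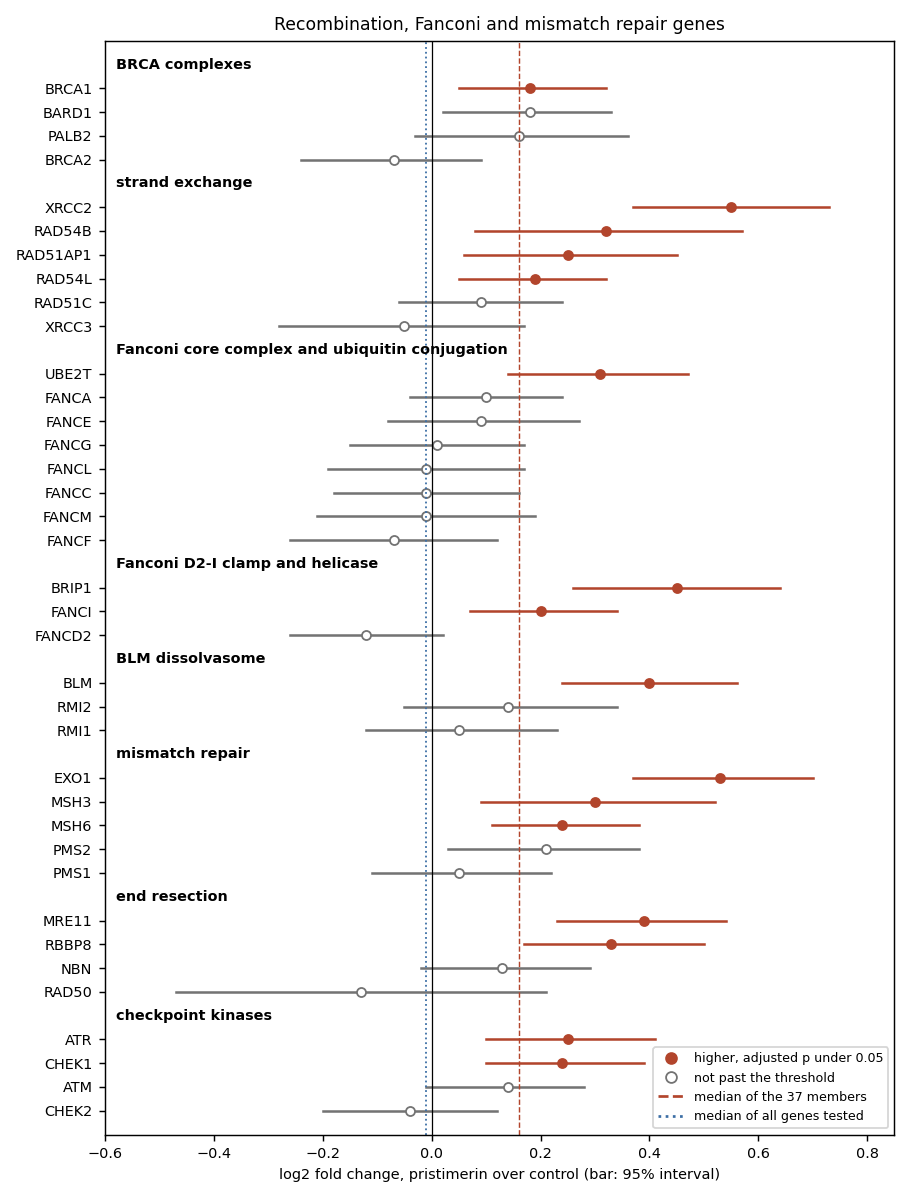
Log2 fold change (pristimerin over control) of each member with its 95% interval, grouped by role; filled points passed the threshold in edgeR's test. The 16 filled points lie to the right of 0, and 7 of the 8 genes of the Fanconi core and conjugation group lie near 0 with open points.

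The 6 libraries held between 19057219 and 30568593 counts, and 3 counts corresponded to between 0.0981 and 0.157 CPM (library-size scaled counts, here and below with edgeR's TMM factors unless stated). Members were well covered, with 213 to 6316 counts per library apart from RAD50. Both libraries numbered 2 stood apart from the others on the second principal component, which held 13.1% of the variance of log2 CPM. Replicate 2 was the highest library of its group in both groups for 25 of the 37 members (67.6%), and for 22.8% of all genes tested; without both libraries numbered 2, 18 members were higher. Markers of monocytic cells were present, among them LYZ at 1547 to 1553 CPM of library totals in pristimerin and 1390 to 1595 in control libraries. However, CD14 was at most 1.05 CPM in pristimerin and 0.646 in control libraries, and CD68 at most 0.411 and 0.564. The summed level of the 10 monocytic markers was 3103 to 3372 CPM of library totals in pristimerin and 3643 to 3869 in control libraries, and its part in the results was not tested. Within this sum, AZU1 was at 746 to 909 in pristimerin and 1158 to 1310 in control libraries. ELANE was at 647 to 754 and 820 to 952, whereas the ranges of LYZ overlapped. Summed B-cell markers reached 5.10 to 5.53 CPM in pristimerin and 4.63 to 5.46 CPM in control libraries. Summed markers of fibroblasts, erythroid or epithelial cells reached at most 0.164 CPM in pristimerin and 0.226 CPM in control libraries.

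**Figure D2:**
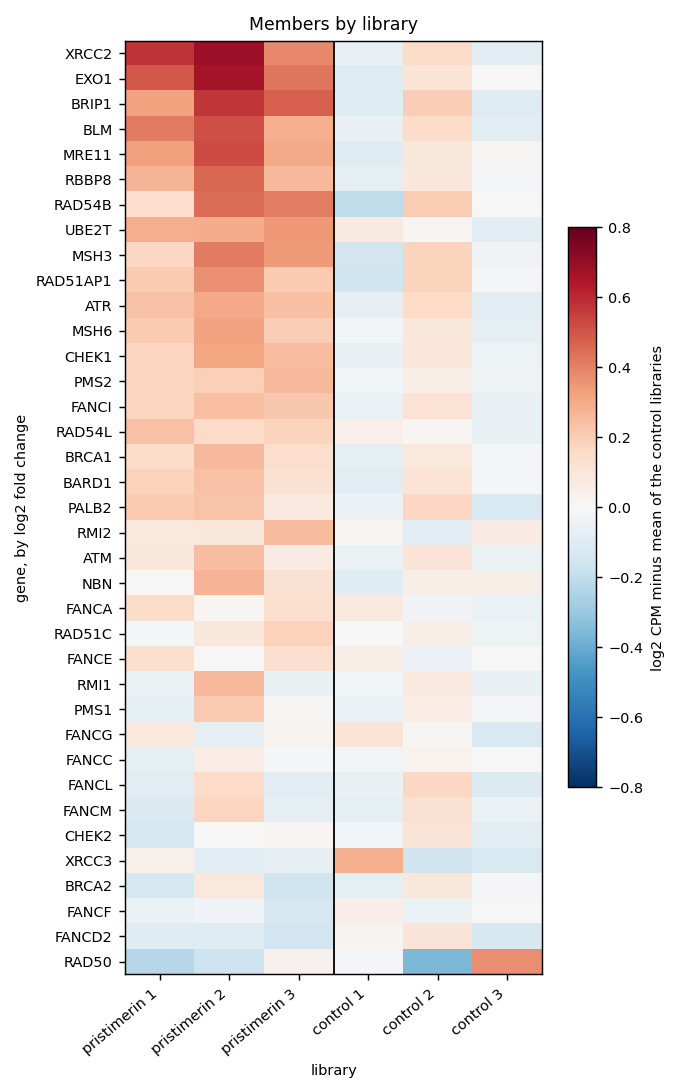
Log2 CPM of each member in each library minus the mean of the control libraries, with genes ordered by log2 fold change. The upper rows are raised in all 3 pristimerin libraries, and replicate 2 is the highest of its group in both groups for 25 of 37 genes.

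Promoters of the members are shown where they hold the letters of the E2F consensus, since E2F factors are known regulators of many of these genes. The letters searched were TTTCCCGC, TTTCGCGC, TTTGCCGC and TTTGGCGC on both strands, in RefSeq promoters (build GRCh38.p14) from 250 bases before to 50 bases after the transcript start, with the first-listed promoter per gene. A promoter was matched for 33 of the 37 members, and 8 of these (24.2%) held such a match, against 5.38% of the promoters of 11017 tested genes. The matches are printed below in capitals on the strand of the gene with the bases beside them, and a run that reads GCGGGAAA is the reverse complement of TTTCCCGC.
XRCC2, chr7:152676105-152676128, minus strand: cgttggtgGCGGGAAAgttgagtc
EXO1, chr1:241848200-241848223, plus strand: ggtcagccTTTCGCGCgctgtgta
MSH3, chr5:80654537-80654564, plus strand: cggtcaagTTTGGCGCGAAAttgtggcc
MSH6, chr2:47783140-47783163, plus strand: cccccagaTTTCCCGCcagcagga
PMS2, chr7:6009134-6009157, minus strand: gaagtattTTTGCCGCcccgcccg
FANCA, chr16:89816804-89816827, minus strand: acaccgcgGCGGCAAAgccaaacg
FANCC, upstream match, chr9:95317866-95317889, minus strand: gggcttccGCGCGAAAccgggaac
FANCC, match nearer the start, chr9:95317740-95317763, minus strand: gtcggaatTTTCCCGCgacgccgc
FANCD2, chr3:10026427-10026450, plus strand: cgggcctgGCGGGAAAgtcgaaaa
The MSH3 stretch holds 2 overlapping matches that read toward each other. The first 4 of these genes were higher and the other 4 were not called, as 4 of 8 members with it (median log2 fold change 0.22) were higher, and 10 of 25 without it (0.14). Over all tested genes with a promoter, 21.6% of those with the match and 15.9% of those without it were higher. The CCAAT box, read by NF-Y, was present in 18 of 33 member promoters (54.5%) and in 36.9% of the promoters of tested genes. The letters TTTGAA of the cell cycle homology region stood in 4 of 33 (12.1%) and in 9.97%. These shares describe the letters in the window and do not identify bound sites.

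BRCA1 was the only member of the BRCA group that was called. BRCA1 (ENSG00000012048, hg38 chromosome 17, 43044295 to 43170245, minus strand), a ubiquitin ligase scaffold that promotes end resection, measured 201, 218 and 200 CPM in pristimerin libraries 1, 2 and 3, against 173, 193 and 180 CPM in control libraries 1, 2 and 3. The groups did not overlap, although the lowest pristimerin library lay close above the highest control library. Its log2 fold change was 0.18 (SE 0.06, adjusted p = 0.037 in edgeR's test), and it lost the call when control replicate 1 or 3 or pristimerin replicate 1 or 2 was left out. BARD1, its obligate partner, measured 52.8, 54.8 and 50.6 CPM in pristimerin and 43.7, 50.1 and 45.9 CPM in control libraries. It had the same log2 fold change of 0.18 (SE 0.07) but missed the threshold (adjusted p = 0.075), and it passed without control replicate 2 (0.24). PALB2, which bridges BRCA1 and BRCA2, had a log2 fold change of 0.16 (95% interval -0.03 to 0.36). BRCA2, a mediator of strand exchange, measured 55.7, 65.3 and 55.0 CPM in pristimerin and 58.5, 65.4 and 60.8 CPM in control libraries, with overlapping groups and an interval of -0.24 to 0.09.

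Among strand-exchange factors, 4 of 6 were higher, and XRCC2 had the largest fold change of all members. XRCC2 (ENSG00000196584, chromosome 7, 152644776 to 152676193, minus strand), a subunit of the BCDX2 complex, measured 57.4, 62.0 and 50.3 CPM in pristimerin libraries, against 36.9, 42.6 and 36.3 CPM in control libraries. Every pristimerin library was above every control library, and the difference was 1.46-fold (log2 fold change 0.55, SE 0.09, adjusted p = 1.6e-04 in edgeR's test). RAD51C, which sits in the same complex, measured 53.5 ± 3.7 CPM in pristimerin and 50.3 ± 1.6 CPM in control libraries (SD, n = 3 each) and was not called. XRCC3, the RAD51C partner in another complex, measured 32.7, 29.9 and 30.3 CPM in pristimerin and 38.7, 28.4 and 29.2 CPM in control libraries. Control library 1 was the highest and the groups overlapped (-0.05, SE 0.11, adjusted p = 0.75). In GENCODE release 29, 76.7% of the exon bases of XRCC3 are shared with KLC1 on the opposite strand, so its value is uncertain if counting ignored the strand.

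RAD51AP1, which stimulates strand invasion, measured 33.3, 37.2 and 33.4 CPM in pristimerin and 25.8, 32.7 and 28.5 CPM in control libraries. It was higher by 0.25 on the log2 scale (SE 0.09, adjusted p = 0.049 in edgeR's test), and every leave-out except that of control replicate 2 ended the call. The strand-exchange motor RAD54L measured 82.8, 78.4 and 79.5 CPM in pristimerin and 72.4, 71.3 and 67.6 CPM in control libraries, a log2 fold change of 0.19 (SE 0.06, adjusted p = 0.035). Without control replicate 3 or pristimerin replicate 1 or 3 it was not called, and 25.1% of its exon bases are shared with LRRC41 on the opposite strand, which was lower (-0.23). Its relative RAD54B was the least abundant of the called members, at 12.1, 15.0 and 14.6 CPM in pristimerin and 9.57, 12.7 and 11.0 CPM in control libraries. The groups overlapped by a single library, and the log2 fold change of RAD54B was 0.32 (SE 0.12, adjusted p = 0.047), a call lost without control replicate 1 or 3 or pristimerin replicate 2 or 3. In GENCODE release 29, 59.1% of the exon bases of RAD54B are shared with the same-strand gene FSBP (mean 1.68 CPM), so its level is uncertain.

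Of the 8 genes of the Fanconi core complex and its ubiquitin conjugation, UBE2T was the 1 that was called. UBE2T (ENSG00000077152, chromosome 1, 202331544 to 202341984, minus strand), the ubiquitin-conjugating enzyme that works with the core ligase, measured 38.2, 38.4 and 39.7 CPM in pristimerin libraries, against 32.8, 31.6 and 29.3 CPM in control libraries. These groups did not overlap, with a log2 fold change of 0.31 (SE 0.08, adjusted p = 0.0065 in edgeR's test). The 7 other genes of this group, FANCA, FANCC, FANCE, FANCF, FANCG, FANCL and FANCM, were not called, with log2 fold changes from -0.07 to 0.10. FANCG, a scaffold of the core complex, measured 63.4, 56.9 and 60.8 CPM in pristimerin and 64.5, 60.2 and 54.8 CPM in control libraries, with overlapping groups (0.01, SE 0.07, adjusted p = 0.94, 95% interval -0.15 to 0.17). The catalytic ligase subunit FANCL measured 52.6 ± 5.2 CPM in pristimerin and 52.9 ± 5.5 CPM in control libraries (SD, n = 3 each; interval -0.19 to 0.17). FANCM, the anchoring translocase, had an interval of -0.21 to 0.19. The signs of FANCC, FANCG, FANCL and FANCM changed with the setting and carry no direction.

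Of the clamp subunits, FANCI was called and FANCD2 was not. FANCI (ENSG00000140525, chromosome 15, 89243945 to 89317261, plus strand), the partner of FANCD2 in the clamp, measured 210, 221 and 217 CPM in pristimerin libraries, against 180, 202 and 179 CPM in control libraries. It was higher without overlap of the groups (log2 fold change 0.20, SE 0.06, adjusted p = 0.021 in edgeR's test), a call lost without control replicate 1 or 3, with upper-quartile scaling (0.14), with library totals (0.13) and in both FPKM fits (0.13 and 0.14). FANCD2 measured 105, 105 and 101 CPM in pristimerin and 114, 121 and 103 CPM in control libraries. The groups of FANCD2 overlapped and it was not called (-0.12, SE 0.07, adjusted p = 0.18), although it passed as lower with upper-quartile scaling (-0.18) and library totals (-0.19). FANCD2 has pseudogene copies that can share its reads. The ratio of FANCD2 to FANCI in FPKM (CPM of library totals divided by gene length) does not depend on the scaling, and it was 0.749, 0.718 and 0.697 in pristimerin and 0.948, 0.899 and 0.865 in control libraries. All 3 pristimerin ratios were below all 3 control ratios. Partner ratios were chosen after their values were seen, so no test is given. BRIP1 (chromosome 17, 61679139 to 61863559, minus strand), the FANCJ helicase that binds BRCA1, measured 53.2, 63.2 and 59.2 CPM in pristimerin and 39.8, 48.8 and 39.6 CPM in control libraries. It was higher by 0.45 on the log2 scale (SE 0.09, adjusted p = 0.0011), with separate groups.

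**Figure D3:**
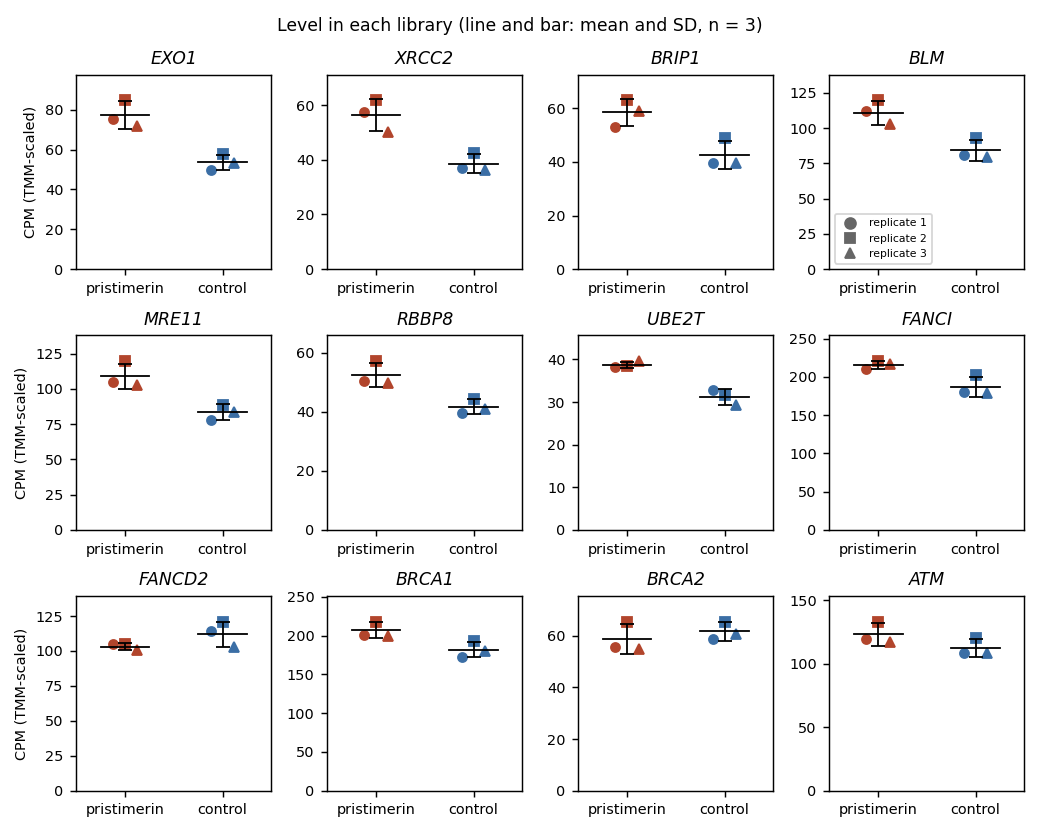
CPM of 12 members in each library, with replicate numbers as symbols and the mean and SD of each group (n = 3) as line and bar; every axis starts at 0. EXO1, XRCC2, BRIP1, BLM, MRE11, RBBP8, UBE2T, FANCI and BRCA1 separate the groups, while FANCD2, BRCA2 and ATM overlap.

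In the dissolvasome, which takes apart joined recombination intermediates, BLM was called and both of its accessory subunits were not. BLM (ENSG00000197299, chromosome 15, 90717346 to 90816166, plus strand), a RecQ helicase, measured 112, 120 and 103 CPM in pristimerin libraries, against 80.6, 93.1 and 79.2 CPM in control libraries. The groups did not overlap, at a log2 fold change of 0.40 (SE 0.08, adjusted p = 7.8e-04 in edgeR's test). RMI1, which stabilises the complex, measured 69.6, 86.3 and 69.2 CPM in pristimerin and 71.1, 76.3 and 69.2 CPM in control libraries (log2 fold change 0.05, SE 0.08, adjusted p = 0.67). Only replicate 2 of the pristimerin libraries exceeded the control libraries for RMI1. RMI2 measured 21.2 ± 1.5 CPM in pristimerin and 19.2 ± 1.0 CPM in control libraries (SD, n = 3 each; log2 fold change 0.14, not called). The FPKM ratio of RMI1 to BLM was 1.43, 1.66 and 1.55 in pristimerin and 2.03, 1.89 and 2.01 in control libraries.

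Of the mismatch repair members, EXO1, MSH3 and MSH6 were higher. EXO1 (ENSG00000174371, chromosome 1, 241847967 to 241895148, plus strand), the exonuclease that excises the strand with the error and also resects broken ends, measured 75.3, 84.9 and 71.8 CPM in pristimerin libraries, against 49.8, 57.5 and 53.2 CPM in control libraries. The lowest pristimerin library was well above the highest control library, and EXO1 had the smallest adjusted p of all members (log2 fold change 0.53, SE 0.08, adjusted p = 7.7e-05 in edgeR's test). MSH6, a subunit of the sensor of single mispairs, measured 158, 171 and 157 CPM in pristimerin and 135, 146 and 130 CPM in control libraries. It was higher by 0.24 on the log2 scale (SE 0.06, adjusted p = 0.0089) without overlap of the groups. The call of MSH6 held in every leave-out and was lost with library totals (0.17) and both FPKM fits (0.15 and 0.17), and 16.2% of its exon bases are shared with FBXO11 on the opposite strand. MSH3, a subunit of the sensor of larger loops, measured 22.7, 27.1 and 25.7 CPM in pristimerin and 18.3, 22.9 and 19.9 CPM in control libraries. Its groups overlapped narrowly (0.30, SE 0.10, adjusted p = 0.033), and the call was lost without control replicate 1 or 3 or pristimerin replicate 2 or 3. PMS1, a MutL protein, measured 54.3, 66.1 and 57.5 CPM in pristimerin and 55.2, 59.6 and 56.8 CPM in control libraries. Its groups overlapped and it was not called (0.05, SE 0.08, adjusted p = 0.66). PMS2, the MutL endonuclease subunit, measured 27.5, 27.9 and 29.2 CPM in pristimerin and 24.1, 25.2 and 24.0 CPM in control libraries and missed the threshold although its groups were separate (0.21, SE 0.08, adjusted p = 0.066). PMS2 has near-identical pseudogenes, so its reads may be shared.

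Of the 4 end-resection genes, MRE11 and RBBP8 were higher. MRE11 (ENSG00000020922, chromosome 11, 94415570 to 94493885, minus strand), the nuclease of the MRN complex, measured 105, 120 and 103 CPM in pristimerin libraries, against 78.1, 88.9 and 83.9 CPM in control libraries. It was higher without overlap (log2 fold change 0.39, SE 0.07, adjusted p = 7.8e-04 in edgeR's test). RBBP8, which encodes the resection cofactor CtIP (chromosome 18, 22798261 to 23026488, plus strand), measured 50.3, 57.3 and 49.9 CPM in pristimerin and 39.5, 44.4 and 41.1 CPM in control libraries. It was higher by 0.33 (SE 0.08, adjusted p = 0.0039), again with separate groups. NBN, the MRN subunit that recruits ATM, measured 110, 133 and 120 CPM in pristimerin and 103, 114 and 114 CPM in control libraries and was not called (0.13, SE 0.07, adjusted p = 0.19, interval -0.02 to 0.29). The FPKM ratio of NBN to MRE11 was 0.415, 0.438 and 0.457 in pristimerin and 0.523, 0.506 and 0.536 in control libraries. RAD50, the ATPase of the same complex, held only 137, 123 and 129 counts in pristimerin and 144, 120 and 134 counts in control libraries. In GENCODE release 29, 79.7% of its exon bases are shared with the same-strand gene AC116366.3. That gene is not among the genes with deposited counts, so the level of RAD50 is uncertain.

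Of the checkpoint kinases, ATR and CHEK1 were higher and ATM and CHEK2 were not called; the difference between these pairs was not tested. ATR (ENSG00000175054, chromosome 3, 142449007 to 142578733, minus strand), the kinase that senses single-stranded DNA at stalled forks, measured 77.9, 81.7 and 78.2 CPM in pristimerin libraries, against 63.2, 73.9 and 62.1 CPM in control libraries. Its groups did not overlap (log2 fold change 0.25, SE 0.07, adjusted p = 0.015 in edgeR's test), and the call was lost without control replicate 3, with upper-quartile scaling (0.19), with library totals (0.18) and in both FPKM fits (0.14 and 0.18). CHEK1, the effector kinase of ATR, measured 85.0, 94.0 and 89.6 CPM in pristimerin and 72.4, 80.7 and 73.4 CPM in control libraries. It was higher by 0.24 (SE 0.07, adjusted p = 0.012) with separate groups, and the call held in every leave-out but not with library totals (0.17) or in the FPKM fits (0.16 and 0.17). ATM, the kinase activated by broken ends, measured 119, 133 and 117 CPM in pristimerin and 108, 120 and 108 CPM in control libraries (0.14, SE 0.07, adjusted p = 0.15). CHEK2, the effector of ATM, measured 41.0, 45.0 and 45.5 CPM in pristimerin and 44.2, 48.4 and 42.5 CPM in control libraries, and was not called (-0.04, SE 0.08, adjusted p = 0.72, interval -0.20 to 0.12). The FPKM ratio of CHEK2 to CHEK1 was 0.602, 0.597 and 0.632 in pristimerin and 0.762, 0.748 and 0.721 in control libraries, without overlap. That of ATM to ATR was 1.07, 1.14 and 1.04 in pristimerin and 1.19, 1.13 and 1.21 in control libraries, and overlapped. CHEK1 overlaps the more abundant STT3A on the same strand over 1.2% of its exon bases, and CHEK2 has pseudogene copies that can share reads.

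**Figure D4:**
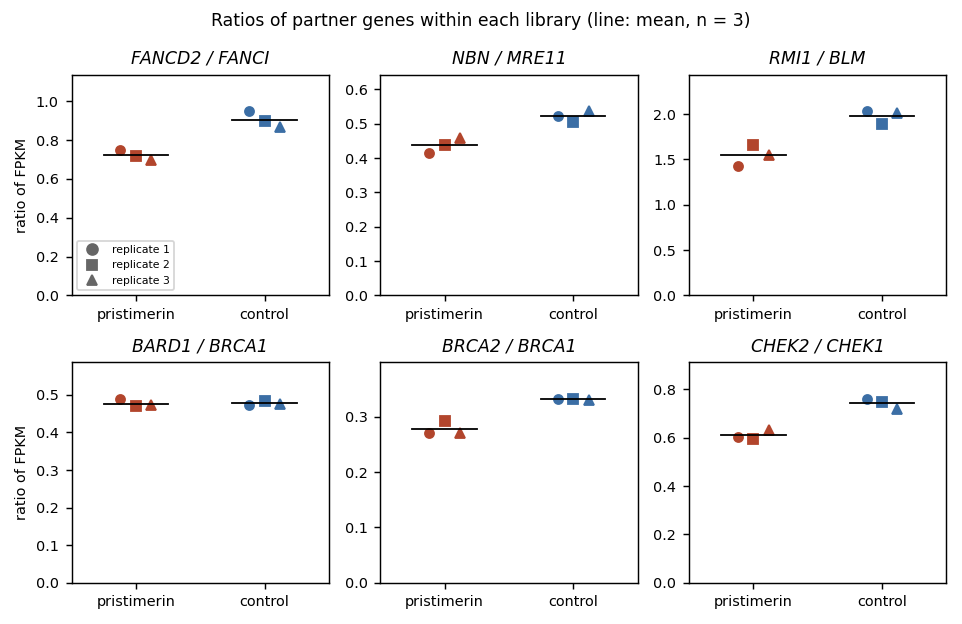
FPKM of the first gene divided by that of the second within each library, with the mean of each group (n = 3) as a line and axes from 0. The ratios of FANCD2 to FANCI, NBN to MRE11, RMI1 to BLM, BRCA2 to BRCA1 and CHEK2 to CHEK1 were lower in all 3 pristimerin libraries than in all 3 control libraries, while BARD1 to BRCA1 overlapped.

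The ratio of BARD1 to BRCA1 was 0.477 ± 0.011 in pristimerin and 0.478 ± 0.0062 in control libraries (SD, n = 3 each). The ratio of BRCA2 to BRCA1 was 0.271, 0.293 and 0.270 in pristimerin and 0.333, 0.333 and 0.331 in control libraries. The ranges of the first ratio overlapped, and every pristimerin value of the second lay below every control value. In all, 14 partner ratios were computed. The groups also overlapped in the ratios of RMI2 to BLM, RAD54L to RAD54B and ATM to ATR. They were separate in those of UBE2T to FANCL, XRCC2 to XRCC3, XRCC2 to RAD51C, EXO1 to MSH6 and PMS1 to MSH6. No share over other gene pairs is given.

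Levels between genes were compared in FPKM, which divides by the gene length the authors used. These lengths ran from 1900 bases for UBE2T to 39200 bases for ATM, and the order depends on them. FANCL, with 38000 bases, ranked 36 at 52.6 CPM in pristimerin and 52.9 CPM in control libraries. FANCF, with 3300 bases, ranked 23 at 17.4 and 18.2 CPM in pristimerin and control libraries. RMI1 had the highest level (21.4 ± 2.8 FPKM in pristimerin and 21.6 ± 1.2 FPKM in control libraries; SD, n = 3 each), followed by RAD54L (19.2 ± 0.66 and 17.7 ± 0.74 FPKM in pristimerin and control libraries) and UBE2T (19.6 ± 0.31 and 16.6 ± 1.1 FPKM in pristimerin and control libraries). Over the 6 libraries the ranges of these 3 genes overlapped. BRCA1 stood at 13.7 FPKM and BRCA2 at 4.17 FPKM as means over the 6 libraries. Each gene overlapped its neighbour in this order except FANCC (1.70 FPKM), which lay below PMS2 (2.34 FPKM), and RAD50 (0.492 FPKM), which lay below all others.

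Related repair genes outside the 37 members were examined as lists. Of 51 other homologous recombination and Fanconi genes tested, 11 were higher and 6 lower, and the median was 0.03 on the log2 scale. The balance of this list turned with the scaling, to 7 higher and 8 lower with upper-quartile scaling, 7 and 9 with library totals and 4 and 7 in each FPKM fit, and it was 7 and 3 without control replicate 3. USP1, the enzyme that removes ubiquitin from FANCD2 and FANCI, was higher (169 ± 18 CPM in pristimerin and 126 ± 6.6 CPM in control libraries; log2 fold change 0.42), as was the core subunit FANCB (0.39), whereas EME1, a partner of the MUS81 nuclease, was lower (-0.42). Of 16 other mismatch repair genes, which include the clamp, clamp loader and polymerase subunits of the resynthesis step, 10 were higher and 1 lower (median 0.25), with 5 to 11 higher and 1 lower over the alternatives. The clamp loader subunit RFC3 (0.50) and the clamp PCNA (0.34) were higher, and the polymerase subunit POLD4 was lower (-0.48). Among 25 other checkpoint and damage signalling genes, 7 were higher and 3 lower (median 0.04). Over the alternatives 6 to 8 were higher and 0 to 3 lower. The largest increases were those of the phosphatase CDC25A (0.48), the CHEK1 adaptor CLSPN (0.42) and RIF1 (0.37). The 3 lower genes were TP53BP1 (-0.24), CDC25B (-0.21) and MDC1 (-0.20). Read against the 14.5% higher and 15.1% lower of all genes tested, the other recombination list had 21.6% higher and 11.8% lower. The other mismatch repair list had 62.5% and 6.25%, and the other checkpoint list 28.0% and 12.0%, all with TMM.

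**Figure D5:**
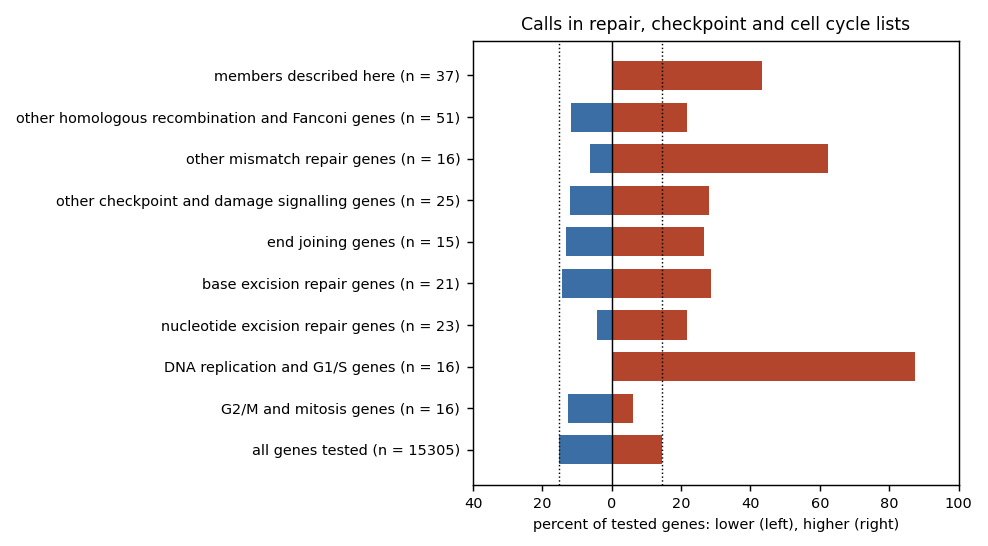
Percent of tested genes of each list called higher (right) or lower (left) in pristimerin over control libraries, with dotted lines at the shares over all genes tested. The members (43.2% higher), the other mismatch repair genes (62.5%) and the replication genes (87.5%) extend farthest to the right.

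For comparison, 14 of 16 replication and G1/S genes were higher (median 0.29), with 9 to 14 higher and 0 lower over the alternatives, among them the cyclins CCNE2 (0.66) and CCNE1 (0.50) and the ribonucleotide reductase subunit RRM2 (0.48). Of 16 G2/M and mitosis genes 1 was higher, the spindle checkpoint kinase BUB1B (0.21), and 2 were lower, KIF20A (-0.38) and CDC20 (-0.24). Their median was 0.03, and over the alternatives 0 to 4 were higher and 2 or 3 lower. The G2/M shares, 6.25% higher and 12.5% lower, did not exceed the 14.5% and 15.1% of all genes tested. For the replication list 87.5% were higher and 0% lower. The part of these cell cycle genes' differences in the members' result was not tested. In these bulk libraries, a larger share of cells in a phase and more RNA per cell cannot be told apart.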

How the data were processed

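The treatment label assigned each THP-1 library to pristimerin (n = 3) or control (n = 3). Per the labels' protocols, RNA was poly(A)-selected and made into strand-specific libraries. The submitters' processing notes name the build hg38; the aligner, the counter and any use of strand in counting were not given in the sources used here. The deposited counts are whole numbers per gene and library; the deposited FPKM values equal counts over gene length and library total, to a coefficient of variation of at most 2.0e-05 over 4312 genes. The table that combines both units repeated these values.

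Testing used R 4.3.3 with edgeR 4.0.16. Genes passed filterByExpr at its defaults (15305 genes; a minimum count of 10 and a total of 15), followed by TMM and a quasi-likelihood F test on group, Benjamini-Hochberg adjustment over all genes tested, threshold 0.05. The SE was taken as |log2 fold change| over the root of F. The fit was tested on simulated data. Alternatives used DESeq2 1.42.0 and limma 3.58.1; figures used matplotlib 3.10.9. Gene coordinates are the deposited ones; exon overlaps come from GENCODE release 29. All 186 list entries matched.

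The naming rule gave full values, per role, to up to 4 called members by size and the uncalled one with the highest FPKM; BRCA2, PMS2 and ATM were added after their values were seen; from each list up to 3 called genes, by size and above 5 CPM on average, are named, and other genes were named after their values were seen. Some genes of these lists are not reported here by name. Members and lists were chosen with earlier results of these data known.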

Additional observations from a re-analysis of the deposited data

How the results depend on the processing

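Over the alternatives, 582 of the values of single members kept their direction and side of the threshold, 68 lost the call, 12 gained one and 41 changed sign, the last group being members that were not called. The median log2 fold change of all genes was -0.07 with upper-quartile scaling and -0.08 with library totals, against -0.01 in the reported fit, and the members' median was 0.10 and 0.09. With upper-quartile scaling 9 members were higher and 1 lower (FANCD2), and 23 genes of the repair lists were lower, against 15 in the reported fit. With library totals 7 members were higher and 1 lower, 27 list genes were higher (42 reported) and 25 lower, and 1389 of all genes were higher (2216 reported). On log2(FPKM + 1) and log2(FPKM + 0.1), limma called 1081 and 1084 of all genes, 7 and 7 members, and 22 and 23 list genes as higher. A mean of at least 5 CPM left 11 members higher. An alternative chosen after seeing the data, without both libraries numbered 2 and with upper-quartile scaling, gave 24 lower list genes. Leaving out 1 library at a time gave 9 to 19 higher and 0 lower members, 1742 to 2357 higher and 1534 to 2329 lower genes among all tested, and 30 to 41 higher and 8 to 19 lower list genes. The cause was not tested.

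The replicate numbers are not shown to pair the samples: same-numbered libraries had deviations correlated at 0.10, 0.14 and 0.04, although every library correlated best with its own number. With a replicate block 20 members were higher, with BARD1, PMS2, NBN and ATM added, and 1 lower (FANCD2), and 23 list genes were lower.

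The members that changed sign had these log2 fold changes. XRCC3 was 0.11 without control replicate 1, and RAD50 was 0.07 without control replicate 3. FANCC was 0.01 to 0.03 (no filter, without control replicate 2 or 3 or pristimerin replicate 1 or 3). FANCG was -0.05 or -0.06 with upper-quartile scaling, library totals and both FPKM fits, and -0.01, -0.02 or -0.03 with protein-coding genes alone, a mean of at least 5 CPM, without pristimerin replicate 1 or without control replicate 3. FANCL was 0.00 with DESeq2, 0.01 with no filter and 0.04, 0.05 and 0.08 without pristimerin replicate 1, pristimerin replicate 3 and control replicate 2. FANCM was 0.00 with DESeq2 or its size factors, 0.01 with no filter, 0.05 without pristimerin replicate 1 or 3 and 0.06 without control replicate 2. RMI1 and PMS1 were -0.01 with upper-quartile scaling and -0.02 with library totals and both FPKM fits. Without pristimerin replicate 2 they were -0.06 and -0.03, and without both libraries numbered 2 with upper-quartile scaling -0.07 and -0.05; RMI1 was -0.01 without both libraries numbered 2. CHEK2 was 0.01 without control replicate 2 or pristimerin replicate 1. Over all single leave-outs the opposite ends were -0.14 for XRCC3, -0.04 for FANCC, -0.09 for FANCL, -0.10 for FANCM, 0.13 for RMI1, 0.12 for PMS1 and -0.30 for RAD50. RAD50, with at most 144 counts per library, was the member most limited by depth (SE 0.16).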

Other observations

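Excision and end-joining repair genes were called in both directions, as were all genes tested (14.5% higher and 15.1% lower). These lists are not wholly separate from recombination: ERCC4 (-0.17, not called) is in the nucleotide excision list and in that of other homologous recombination and Fanconi genes. Of 15 end-joining genes, 4 were higher (26.7%) and 2 lower (13.3%; median log2 fold change 0.11): the DNA-dependent kinase PRKDC measured 1112 ± 41 CPM in pristimerin and 896 ± 21 CPM in control libraries (SD, n = 3 each; 0.31), while the ligase LIG4 was lower (-0.34). Of 21 base excision repair genes, 6 were higher (28.6%) and 3 lower (14.3%; median 0.01), but 4 were higher and 6 lower with upper-quartile scaling, and 4 and 7 with library totals; the glycosylases NEIL1 (-0.67) and NEIL2 (-0.53) were lower. Of 23 nucleotide excision repair genes tested, 5 were higher (21.7%) and 1 lower (4.35%; median -0.04). That balance reversed to 1 higher and 4 lower with upper-quartile scaling and with library totals, and 2 were higher without control replicate 3, pristimerin replicate 2 or pristimerin replicate 3. The damage sensor DDB2 was higher (0.41; 59.5 ± 1.8 CPM in pristimerin and 44.6 ± 4.1 CPM in control libraries; SD, n = 3 each), and the nuclease subunit ERCC1 was lower (-0.45; 37.4 ± 2.2 and 50.9 ± 4.4 CPM in pristimerin and control libraries).

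Of the 33 members with a RefSeq promoter, 11 (33.3%) had the start of a tested gene on the opposite strand within 1000 bases of a start of their own, against 22.8% of tested genes with a promoter. MRE11 (0.39, higher) starts 140 bases from ANKRD49 (0.25, not called; 31.5 CPM in pristimerin and 26.5 CPM in control libraries). A RefSeq start of BRCA1 (0.18, higher) lies 82 bases from NBR1, which was lower (-0.46, at 69.1 CPM in pristimerin and 94.9 CPM in control libraries). NBR2, also named as a neighbour of BRCA1, was not called (0.17, at 13.3 CPM in pristimerin and 11.9 CPM in control libraries). PALB2 and RMI1 were not called, and their neighbours DCTN5 (0.16) and HNRNPK (0.17) were higher. These neighbours were looked at after the values of the members were known.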
